A study of Mus musculus with 2 samples.

Results

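Endothelial cells line the blood vessels, and in the brain they are joined by tight junctions into the blood-brain barrier. They are recognised by Cldn5, a protein of these junctions, by the adhesion molecule Pecam1 and by Flt1, a receptor for vascular endothelial growth factors. Smooth muscle cells and pericytes, which wrap the vessels from outside, are separate cell types. In droplet data a barcode marks every captured RNA molecule (a unique molecular identifier, UMI). The number of UMIs is the depth of a cell, and the number of genes detected is its complexity.

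The endothelial cells described here are the cells that the authors placed in the clusters Endothelial_1 and Endothelial_2 of the ventral hippocampus (vHPC). There were 640 of them among 8477 cells, 498 in Endothelial_1 and 142 in Endothelial_2, and together they make up the whole endothelial type of the deposited table. Cells came from male mice of 11 to 12 weeks on a mixed C57BL/6J x C57BL/6N background, perfused with cold PBS, and were loaded on a 10x Genomics chip after papain digestion of the dissected tissue. WT mice carry ADCY2-V151. L151 mice, which the paper defines as homozygous mutants, carry ADCY2-L151, a leucine in place of a valine in adenylyl cyclase 2. The line was made by CRISPR/Cas9 from a single heterozygous founder. The study left out 1 sample of each genotype, which leaves 1 WT and 1 L151 library. With 1 library per genotype no test between genotypes or clusters was made, and the intervals below cover counting error only.

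The deposited table gives for every cell its UMIs, genes, mitochondrial percentage, doublet score and cluster name. Counts per gene were not analysed here, so the endothelial label was not checked against Cldn5, Pecam1 or Flt1. The WT library held 4055 cells and the L151 library 4422, and 3 cell barcodes occurred in both, 1 of them on an endothelial cell. The clusters were made by the authors from the expression of the same cells, and differences between Endothelial_1 and Endothelial_2 are therefore a description.

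Endothelial_1 was the larger cluster in both libraries, and Endothelial_2 took up a similar part of the endothelial cells in each. In WT, 74 of 344 endothelial cells belonged to Endothelial_2, which is 21.5% (95% exact Clopper-Pearson interval 17.3 to 26.2%). In L151, 68 of 296 cells did, which is 23.0% (18.3 to 28.2%). These intervals overlap widely. As a part of all cells, Endothelial_1 was less frequent in the L151 library, with 5.16% (4.52 to 5.85%) against 6.66% (5.91 to 7.47%) in WT, and these intervals do not overlap. Endothelial_2 made up 1.54% (1.20 to 1.95%) of all L151 cells and 1.82% (1.44 to 2.29%) of all WT cells. Genotype and library cannot be told apart here. By RNA rather than by cells the smaller cluster weighed far less: it held 4.48% of the endothelial UMIs of the WT library and 4.87% of those of the L151 library. Endothelial_1 held 1582579 UMIs in WT and 1330298 in L151, against 74173 and 68082 in Endothelial_2.

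Depth separated the clusters in the same way in both libraries. In WT, Endothelial_1 cells had a median of 5062 UMIs, with quartiles of 3565 and 7943 and a range from 1113 to 14839. In L151 their median was 5068 UMIs, with quartiles of 3666 and 7755 and a range from 1248 to 14915. Endothelial_1 was thus nearly identical in depth between the libraries, with medians 6 UMIs apart.

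Endothelial_2 cells were shallow. Their median was 731 UMIs in WT (quartiles 557.5 and 1074, range 390 to 6804) and 686.5 UMIs in L151 (quartiles 540.8 and 1230, range 426 to 6252), an L151/WT ratio of 0.939. The Endothelial_2/Endothelial_1 ratio of median UMIs was 0.144 in WT and 0.135 in L151. The distributions overlapped only at their edges. In WT, 57 of 74 Endothelial_2 cells (77.0%, 65.8 to 86.0%) had fewer UMIs than the shallowest Endothelial_1 cell, and in L151 this held for 52 of 68 (76.5%, 64.6 to 85.9%). A randomly paired Endothelial_2 cell had more UMIs than an Endothelial_1 cell in 1.94% of all WT pairs and in 1.68% of all L151 pairs. Part of this gap depends on the lower limit of genes per cell: with at least 1000 genes the ratio of median UMIs was 0.356 in WT and 0.417 in L151, with 9 and 7 Endothelial_2 cells left.

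**Figure D1:**
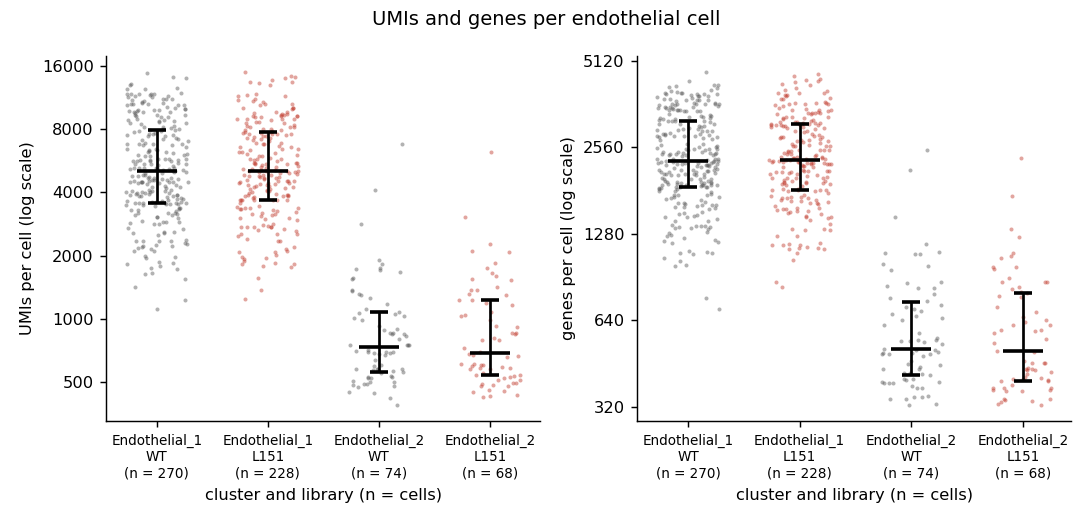
UMIs per cell (left) and genes per cell (right) on log scales for each endothelial cluster and library, with 1 point per cell, the median as a wide black bar and the quartiles as whiskers. WT (grey) and L151 (red) cells cover the same range within a cluster, while Endothelial_2 lies below Endothelial_1, with median UMIs of 731 and 686.5 against 5062 and 5068.

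Gene numbers followed the UMIs. Endothelial_1 cells had a median of 2290 genes in WT (quartiles 1860 and 3155, range 704 to 4661) and of 2320 genes in L151 (1817 and 3084, range 839 to 4607). Endothelial_2 cells had a median of 508 genes in WT (415 and 742.5, range 326 to 2502) and of 501 genes in L151 (395.3 and 798.5, range 326 to 2340). The Endothelial_2/Endothelial_1 ratio was 0.222 in WT and 0.216 in L151, and the L151/WT ratio was 1.01 for Endothelial_1 and 0.986 for Endothelial_2. Cells with few genes were common in Endothelial_2, whose fewest genes lay close to the authors' lower limit. Over all 8477 deposited cells the fewest genes were 321. Under 500 genes were found in 35 of 74 WT cells (47.3%, 35.6 to 59.3%) and in 34 of 68 L151 cells (50.0%, 37.6 to 62.4%) of Endothelial_2, but in 0 of 498 Endothelial_1 cells, which allows a share of up to 0.602%. Conversely, 20 of 498 Endothelial_1 cells had over 4000 genes, and 0 of 142 Endothelial_2 cells did, which allows up to 2.11%.

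A cell of Endothelial_2 yielded more genes per UMI. The median was 0.709 genes per UMI in WT and 0.697 in L151, against 0.459 in both libraries for Endothelial_1. The measure log10 genes divided by log10 UMIs gave medians of 0.947 (WT) and 0.945 (L151) for Endothelial_2 and of 0.909 in both libraries for Endothelial_1. These values cannot be compared without regard to depth, since across cells genes rose with UMIs almost without scatter (Spearman's rho of 0.987 to 0.995 in the 4 combinations of cluster and library, over 68 to 270 cells that share a library). The slope of log2 genes on log2 UMIs was 0.80 in Endothelial_2 and 0.67 in Endothelial_1 in either library. The authors' lower limit of genes also keeps out shallow cells with few genes per UMI.

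At like depth the gap in genes nearly closed in WT. Bins of 0.5 on the log2 scale of UMIs with at least 5 cells of each cluster were required, and a single bin, 1448 to 2048 UMIs, met this in each library. In WT, 8 Endothelial_2 cells had a median of 1087 genes and 12 Endothelial_1 cells 1106 genes, a ratio of 0.983. In L151, 6 Endothelial_2 cells had a median of 980 genes and 11 Endothelial_1 cells 1140 genes, a ratio of 0.860. Depth still differed within the bin, with 1715 against 1798 UMIs in WT and 1630 against 1838 in L151, and these few cells cannot show a small difference. Counts per gene were not used, so cells could not be thinned to a common depth.

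**Figure D2:**
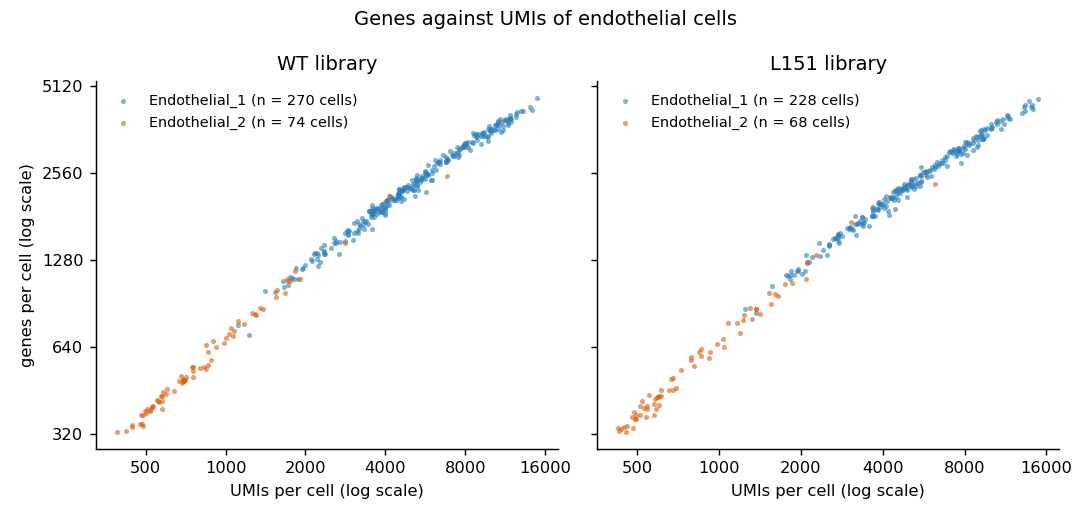
Genes against UMIs per cell on log scales in the WT (left) and L151 (right) library, with 1 point per cell. Endothelial_2 (orange) continues the band of Endothelial_1 (blue) toward fewer UMIs, and both clusters have cells between 1448 and 2048 UMIs.

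Set beside all cells outside the endothelial type in the same range of UMIs, Endothelial_1 had a higher median of genes per UMI. The median depth within a range differed, and pericytes stood above Endothelial_1 from 2000 to 8000 UMIs. Among cells of 4000 to 8000 UMIs, 211 Endothelial_1 cells of both libraries had a median of 0.449 genes per UMI (2422 genes at 5395 UMIs), while 2455 cells outside the endothelial type had 0.412 (2399 genes at 5834 UMIs). Pericytes of this range had 0.4997 genes per UMI but were shallower, with a median of 4441 UMIs over 42 cells. The 217 cells of Microglia_1 came close to Endothelial_1, with 0.444 at a lower median of 4793 UMIs. The 31 vascular cells had 0.382 at 6409 UMIs, and the 76 cells of Microglia_2 0.380 at 6068 UMIs. Above 8000 UMIs the 120 Endothelial_1 cells had a median of 3621 genes at 9975 UMIs, against 3392 genes at 10237 UMIs in 1841 other cells. From 2000 to 4000 UMIs Endothelial_1 was deeper than the other cells, with 1685 genes at 3193 UMIs against 1523 genes at 3070 UMIs. The 91 pericytes of this range had more genes at like depth, 1747 at 3175 UMIs (0.553 against 0.530 genes per UMI). In the range of 500 to 1000 UMIs, 74 Endothelial_2 cells had 0.726 genes per UMI at 660 UMIs. Meningeal cells of that range had 0.687 at 685 UMIs (31 cells) and Neu_CA1_2, a shallow cluster of CA1 neurons, 0.755 at 650 UMIs (173 cells), so that Endothelial_2 stood between them.

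The mitochondrial percentage, the part of a cell's UMIs that comes from mitochondrial genes, was low in both clusters. In Endothelial_1 the median was 3.41% in WT (quartiles 2.75 and 3.99%, range 1.43 to 20.8%) and 3.20% in L151 (2.60 and 4.17%, range 1.06 to 11.1%). In Endothelial_2 it was 3.45% in WT (2.32 and 5.80%, range 0 to 17.3%) and 4.33% in L151 (2.03 and 5.87%, range 0 to 17.3%). The medians of the clusters thus differed by 0.0428 percentage points in WT and by 1.13 in L151, both less than the distance between the quartiles of Endothelial_2. The WT difference depended on the cells and the summary used: it was -0.369 percentage points with cells over 10% left out, 0.979 with at least 500 genes per cell, 1.16 with at least 1000 genes and 0.974 between means over cells. Between the libraries, the L151 minus WT difference was -0.207 percentage points in Endothelial_1 and 0.884 in Endothelial_2. The mean over cells put Endothelial_2 of L151 below that of WT instead, at 4.41% against 4.65%.

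Over cells of all depths, the clusters differed more in spread than in level. Of the 142 Endothelial_2 cells, 24 (16.9%, 11.1 to 24.1%) had under 1% mitochondrial UMIs, and 6 of these had none. By contrast, 0 of 498 Endothelial_1 cells were under 1%, which allows a share of up to 0.602%. At the other end, over 10% was found in 13 of 142 Endothelial_2 cells (9.15%, 4.97 to 15.1%) and in 6 of 498 Endothelial_1 cells (1.20%, 0.443 to 2.60%). In numbers, an Endothelial_2 cell held a median of 32.5 mitochondrial UMIs in WT and 34 in L151, and an Endothelial_1 cell 170 and 185. Percentages of Endothelial_2 cells therefore rest on few molecules and carry more counting error. The clusters were also not matched in depth, since Endothelial_1 had no cell under 1000 UMIs. From 1000 to 2000 UMIs, over both libraries, percentages ran from 1.46 to 11.9% in 38 Endothelial_2 cells. In 27 Endothelial_1 cells of that range they ran from 1.43 to 9.80%. The medians there were 3.67 against 3.84% in WT and 4.75 against 2.62% in L151.

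Within Endothelial_2, deeper cells had higher mitochondrial medians in both libraries. Below 500 UMIs the median was 0.617% over 10 WT cells and 1.35% over 12 L151 cells. From 500 to 1000 UMIs it was 3.38% (41 cells) and 3.87% (33 cells), and from 1000 to 2000 UMIs 3.67% (20 cells) and 4.75% (18 cells). Over both libraries, the median of cells outside the endothelial type also rose across these ranges, from 0.467% to 4.81% and 9.95%. The mix of cell types changed with it: Neu_CA1_2, a shallow CA1 cluster, held 132 of 150, 173 of 637 and 40 of 1045 of these cells. Within Neu_CA1_2 the medians were 0.442, 0.547 and 7.69%. The median of meningeal cells rose from 1.66% to 5.27% and 7.82%. The medians of Endothelial_1, which had no cell under 1000 UMIs, covered a narrower range. In WT they were 3.84% from 1000 to 2000 UMIs, 3.21% from 2000 to 4000, 3.38% from 4000 to 8000 and 3.59% above. In L151 they were 2.62, 2.94, 3.37 and 3.20%. Across cells, Spearman's rho of UMIs and mitochondrial percentage was 0.297 (WT, 74 cells) and 0.392 (L151, 68 cells) in Endothelial_2, and 0.0957 (270 cells) and 0.166 (228 cells) in Endothelial_1. The UMIs of a cell enter both measures, and kept cells had passed the authors' lower limit of genes. Cells under 500 UMIs are thus only those with many genes for their UMIs. What this limit does to the medians was not tested.

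**Figure D3:**
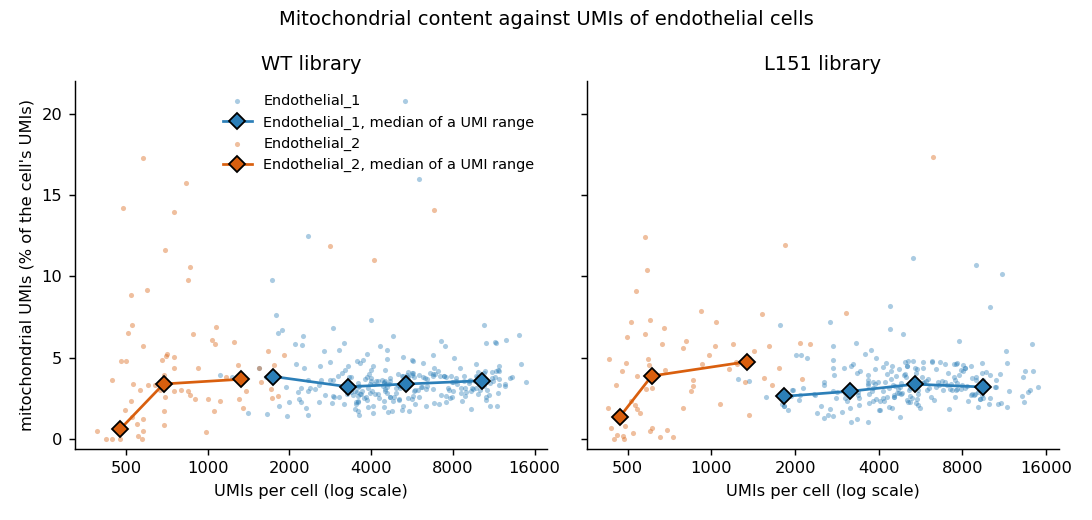
Mitochondrial percentage against UMIs per cell (log scale) in the WT (left) and L151 (right) library, with 1 point per cell and diamonds for the median of each UMI range that holds at least 10 cells. The orange diamonds of Endothelial_2 climb from 0.617 to 3.67% in WT and from 1.35 to 4.75% in L151, while the blue diamonds of Endothelial_1 stay between 2.62 and 3.84%.

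In each library the 2 deepest cells of Endothelial_2 lay above its upper mitochondrial quartile, but the highest WT percentage, 17.3%, belonged to a cell of 500 to 1000 UMIs. The deepest WT cell had 6804 UMIs, 2502 genes and 14.1% mitochondrial UMIs, and the deepest L151 cell 6252 UMIs, 2340 genes and 17.3%. The next WT cell had 4112 UMIs and 11.0%, and the next L151 cell 3061 UMIs and 7.74%. These cells weigh on sums: of all UMIs of Endothelial_2, 5.88% (5.71 to 6.05%) were mitochondrial in WT and 5.89% (5.71 to 6.07%) in L151. Without the deepest cell of each library these values were 5.05% (4.89 to 5.22%) and 4.73% (4.56 to 4.90%). For Endothelial_1 the summed values were 3.69% (3.66 to 3.72%) and 3.59% (3.56 to 3.62%).

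The doublet score, a value per cell that is high where a droplet resembles a mixture of cells and whose scale none of the sources state, took a single value in Endothelial_2. All 74 WT and all 68 L151 cells of that cluster had a score of exactly 0. In Endothelial_1, 47 of 270 WT cells (17.4%, 13.1 to 22.5%) and 41 of 228 L151 cells (18.0%, 13.2 to 23.6%) had a score of 0. The Endothelial_1 median was 1.33 in WT (quartiles 1.15 and 1.53, highest 2.98) and 1.29 in L151 (1.12 and 1.52, highest 2.72). Cells removed by the authors as doublets are not in the table, and the score describes the cells that were kept.

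A score of 0 went with low depth throughout the series. All 883 cells under 1000 UMIs had it, 96 of them in Endothelial_2 and 787 outside the endothelial type. From 1000 to 2000 UMIs, it was found in 27 of 27 Endothelial_1 cells, in 38 of 38 Endothelial_2 cells and in 808 of 1045 other cells (77.3%, 74.7 to 79.8%). Endothelial_1 cells with a score above 0 began at 2266 UMIs in WT and at 2351 in L151. From 2000 UMIs upward, the 8 Endothelial_2 cells all had a score of 0, against 61 of 471 Endothelial_1 cells (13.0%, 10.1 to 16.3%) and 418 of 6005 other cells (6.96%, 6.33 to 7.63%). These groups were not matched in depth. From 2000 to 4000 UMIs, the 5 Endothelial_2 cells had a median of 2272 UMIs, against 3193 UMIs in 140 Endothelial_1 cells. Of these 140 cells, 49 had a score of 0. From 4000 to 8000 UMIs, 3 of 3 Endothelial_2 cells had a score of 0, against 10 of 211 Endothelial_1 cells (4.74%). These 3 cells include those of 6804 and 6252 UMIs, and so few cells cannot separate cluster from depth.

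**Figure D4:**
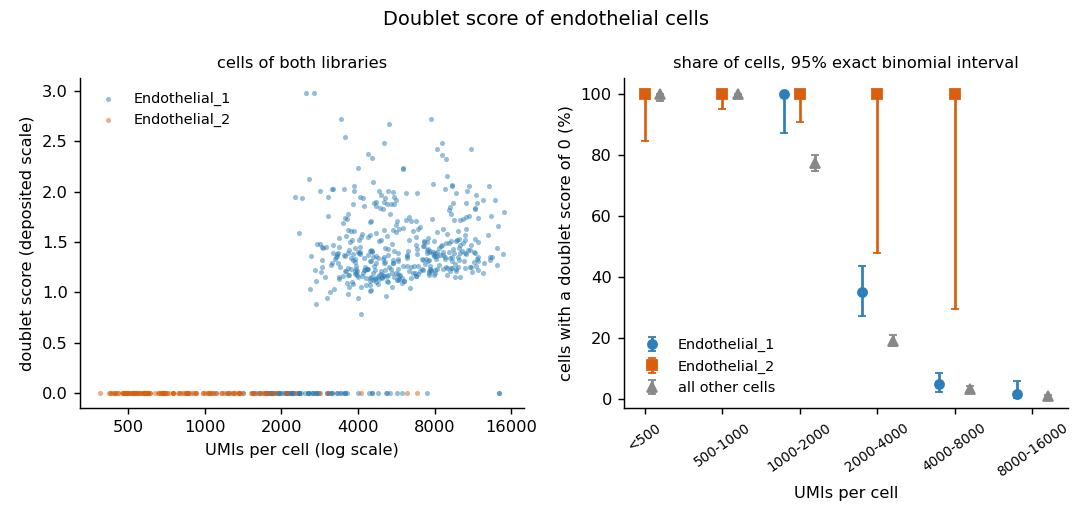
Doublet score against UMIs per cell (log scale) for endothelial cells of both libraries (left), and the percentage of cells with a score of 0 in 6 ranges of UMIs with 95% exact binomial intervals (right) for Endothelial_1 (blue), Endothelial_2 (orange) and all other cells (grey). Endothelial_2 stays at 0 at every depth, whereas 49 of 140 Endothelial_1 cells from 2000 to 4000 UMIs and 10 of 211 (4.74%) from 4000 to 8000 UMIs have a score of 0.

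Among the 33 clusters of the table, Endothelial_2 had the second lowest median of UMIs (708 over both libraries) and of genes (506.5), after Neu_CA1_2 with 563 UMIs and 434 genes. Endothelial_1 stood in the middle, at rank 18 from the lowest UMIs and rank 19 from the fewest genes. In mitochondrial content the endothelial clusters were neighbours, at ranks 9 (Endothelial_1, 3.34%) and 10 (Endothelial_2, 3.90%) from the lowest. Of the other shallow clusters, Neu_CA1_2 had a median of 0.555%, meningeal cells 4.91%, OPCs 8.08% and Astrocytes_3 7.13%. Pericytes had 2.86% and vascular cells 7.02%. By medians over all deposited cells, the endothelial clusters thus lay far apart in depth and next to each other in mitochondrial rank.

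**Figure D5:**
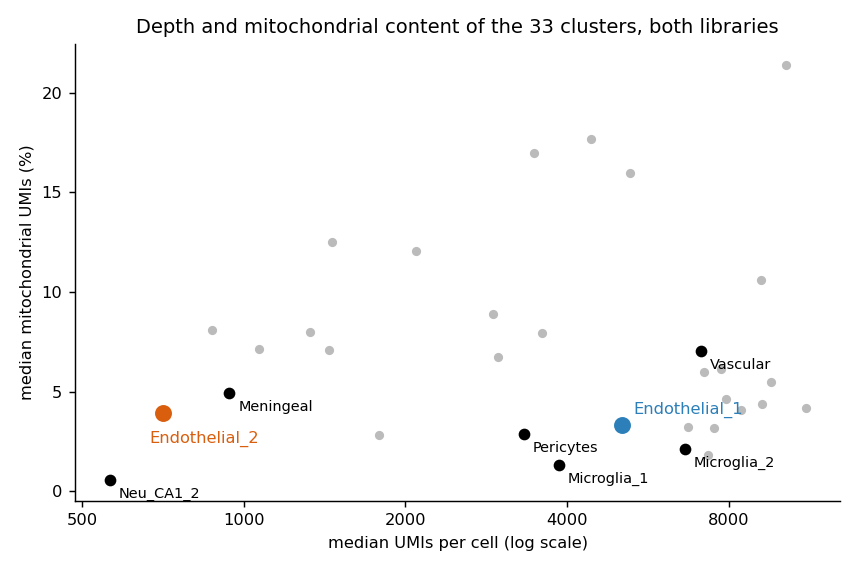
Median mitochondrial percentage against median UMIs per cell (log scale) of the 33 clusters over both libraries, with 1 point per cluster, the endothelial clusters in colour, 6 other labelled clusters in black and the rest in grey. Endothelial_1 and Endothelial_2 differ in median UMIs (5066 and 708) and have median mitochondrial percentages of 3.34 and 3.90%.

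A shallow companion cluster was not particular to endothelial cells. Of the 17 main cell types, 8 hold more than 1 cluster. The ratio of median UMIs between the shallowest and the largest cluster was 0.140 for endothelial cells, 0.138 for astrocytes (Astrocytes_3 over Astrocytes_1), 0.107 for CA1 neurons (Neu_CA1_2 over Neu_CA1_1), 0.264 for oligodendrocytes and 0.325 for GABAergic neurons. In microglia, CA3 and DG neurons the largest cluster was itself the shallowest. A score of 0 in every cell was shared by 4 clusters, namely Endothelial_2, Neu_CA1_2, OPCs and GABA_2. In mitochondrial content the pairs differed in direction: the shallow cluster stood below the largest in CA1 neurons (0.555 against 16.0%) and GABAergic neurons (7.08 against 17.7%) and above it in oligodendrocytes (12.1 against 4.60%), while endothelial cells (3.90 against 3.34%) and astrocytes (7.13 against 6.13%) had a small gap.

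Shallow cells of the series were more numerous in L151 than in WT, mostly in Neu_CA1_2. Below 500 UMIs that cluster held 22 WT and 110 L151 cells, and from 500 to 1000 UMIs 45 and 128. Meningeal cells with under 500 genes, like those of Endothelial_2, were about as many in both libraries, with 14 in each. Of all cells with under 500 genes, Endothelial_2 held 35 of 164 in WT (21.3%, 15.3 to 28.4%) and 34 of 367 in L151 (9.26%, 6.50 to 12.7%). The number of such endothelial cells was nearly equal in the libraries, and as a part of all endothelial cells they made up 10.2% in WT (7.19 to 13.9%) and 11.5% in L151 (8.09 to 15.7%). Under 1000 genes were found in 68 of 344 WT and 63 of 296 L151 endothelial cells, 19.8% (15.7 to 24.4%) and 21.3% (16.8 to 26.4%).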

How the data were processed

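Single cells of the vHPC were captured with the 10x Genomics 3′ chemistry. Cell Ranger 3.0.2, the mm10 genome and Seurat 3.1.3 are named in the submitters' processing notes. The authors deposited whole-number counts of UMIs and genes per cell, which are not normalized, the percent of UMIs from mitochondrial genes, and a doublet score whose scale none of the sources state. The authors had already removed doublets with scran, blood cells, droplets outside limits of genes and mitochondrial content, and 1 sample per genotype. All cells and cluster names were used as deposited, and every column of values was tied to a sample, with 0 exceptions. Depth is given by the totals per cluster in the text.

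Medians, quartiles and shares per cluster and library were computed in pandas 2.3.3 and numpy 2.4.6 under Python 3.11.15, intervals in scipy 1.17.1 and plots in matplotlib 3.10.9. Mitochondrial UMIs were recovered as percent times UMIs, which gave whole numbers (within 1e-06) in 100% of cells. Shares have exact Clopper-Pearson 95% intervals, sums of mitochondrial UMIs included, and a count of 0 allows up to 3 counts. The interval and matching functions were tested on simulated data. For matching, the simulated clusters had the same distribution of UMIs, so the test does not cover the small overlap in depth of these clusters. Genes are named as background only, by rule. The clusters, lists and settings were chosen with earlier results of these data known. Alternatives were minimums of 500 and 1000 genes, a maximum of 10% mitochondrial content, and leaving out the top 10% of doublet scores. Others were means in place of medians (geometric for UMIs and genes), UMIs without the mitochondrial part, and other bins. Cells of 1000 to 3000 UMIs and sums without the deepest cell were added after the data were seen.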

Additional observations from a re-analysis of the deposited data

Results flagged for a closer look

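In 3 measures the L151 and WT medians of the clusters lay on opposite sides of no difference, for UMIs and genes by small amounts. The L151/WT ratio of median UMIs was 1 (5068 against 5062 UMIs) for Endothelial_1 and 0.939 for Endothelial_2, and that of median genes was 1.01 and 0.986. The L151 minus WT difference of the median mitochondrial percentage was -0.207 percentage points for Endothelial_1 and 0.884 for Endothelial_2. With 1 library per genotype the difference between the clusters was not tested. Ranges of the ratios were made from the ends of the 95% intervals of both medians, so they are wider than 95% intervals. Over cells of these libraries only, the ranges held 1 for both clusters in UMIs and in genes. Ranges of the mitochondrial differences, made in the same way, held no difference as well. They were -0.545 to 0.208 percentage points for Endothelial_1 and -1.23 to 1.95 for Endothelial_2. Of the differences between the libraries, that of mitochondrial percentage in Endothelial_1 kept its direction under the 6 alternatives run. The others did not, as given below.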

How the results depend on the processing

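No paired analysis was possible because each genotype has 1 library. Depth limits the comparison of the clusters, which share few cells of like UMIs, and at least 5 cells per bin with bins of 0.25 left no value, nor did a minimum of 1000 genes in L151 for genes at matched UMIs.

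A minimum of 500 genes lowered the share of Endothelial_2 among endothelial cells to 12.6% in WT and 13.0% in L151, and raised its ratio to Endothelial_1 to 0.210 and 0.243 in UMIs and to 0.317 and 0.345 in genes. With a minimum of 1000 genes the shares were 3.26% and 3%, the ratios of UMIs 0.356 and 0.417, those of genes 0.480 and 0.537, and the mitochondrial difference in L151 was 2.72 percentage points. Among cells of 1000 to 3000 UMIs, a range chosen after seeing the data, the shares were 32.3% and 35.6%, the ratios 0.607 and 0.584 in UMIs and 0.645 and 0.654 in genes, the difference in doublet score was 0 in both libraries, the mitochondrial difference in L151 was 1.97, and the L151 minus WT mitochondrial difference of Endothelial_1 was -0.801. Minimums of genes remove mostly Endothelial_2 cells by construction. The range of 1000 to 3000 UMIs instead removed mostly Endothelial_1 cells. It kept 44 of 270 WT and 38 of 228 L151 cells of Endothelial_1, and 21 of 74 and 21 of 68 of Endothelial_2. The difference of mean doublet scores was -1.22 in WT and -1.20 in L151. The summed mitochondrial percentage of Endothelial_2 without the deepest cell was 5.05% in WT and 4.73% in L151.

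Endothelial_2 was below Endothelial_1 in UMIs and genes under each alternative run. The mitochondrial difference between the clusters lay between -0.369 and 1.16 in WT and between 0.917 and 2.72 in L151. The L151/WT ratio of median UMIs lay between 0.977 and 1.05 for Endothelial_1 and between 0.939 and 1.16 for Endothelial_2, so that neither kept its direction. That of median genes lay between 0.989 and 1.01 for Endothelial_1 and between 0.984 and 1.14 for Endothelial_2. The L151 minus WT mitochondrial difference of Endothelial_2 lay between -0.238 and 1.35 and changed its direction under the mean over cells.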
